A study of Mus musculus with 4 samples.

Results

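Contacts of PATZ1 KO mESCs were set against those of WT mESCs. This comparison used 2 of the 4 Micro-C libraries of the series, 1 library for each genotype. Of 23095428 listed pairs of 8 kb bins in ESCs, the 22191618 pairs on the 19 autosomes were taken, and the whole series lists 44101125 pairs. Both lines are E14 (ES-E14TG2a), a mouse embryonic stem cell line, grown with LIF and the inhibitors PD0325901 and CHIR99021. The KO line was made from the WT line with a guide RNA and Cas9 on a plasmid. Several KO clones were made in the study, and which one gave the library is not given in the sources used here. The cells were harvested as a pool, fixed with disuccinimidyl glutarate and formaldehyde, and cut with micrococcal nuclease. MNs, motor neurons made from the same ESC lines with retinoic acid and smoothened agonist, are given only where they bear on an ESC value. The study made cervical and thoracic MNs, and the sample titles do not say which gave these libraries. Micro-C reads DNA contacts and not RNA, so no marker gene could be used to check the labelled cell type.

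PATZ1 is a protein with a BTB/POZ domain, AT hooks and zinc fingers, and it binds G-rich DNA. Mammalian chromosomes fold into domains, stretches of DNA whose parts touch each other more than they touch the neighbouring DNA. Domains are formed by cohesin, a ring complex that draws DNA into loops and is stopped mainly at sites bound by CTCF. A boundary is a place that few contacts cross, and insulation is the depletion of contacts across it.

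There was no replicate in either genotype, so no difference here has a replicate check and no p-value was computed. A feature was called when the ratio of PATZ1 KO over WT passed a fixed fold, after scaling to the contacts of all autosomes. The lower fold limit, a log2 ratio of 0.32 in either direction, was used for windows, domains, boundaries and segments, and the upper one of 1.5-fold, a log2 ratio of 0.58, for promoters, pairs and single bins. The autosomal contacts numbered 166052904 in WT and 154422469 in PATZ1 KO mESCs. Intervals are at 95%, and those of ratios cover counting error only. Those of medians reflect the spread over features within the same libraries, and none covers variation between replicates. The list gives only pairs with at least 1 contact in each library. A bulk count cannot tell a contact made in fewer cells from one made less often in each cell, and it cannot tell fewer copies of the DNA from fewer contacts of each copy.

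The targeted gene was examined first. Patz1 was cut with a guide that lies on chromosome 11 at chr11:3290600-3290619 (GRCm38, plus strand), where it spans the start codon. The guide is shown because it defines the KO, with the PAM, which Cas9 needs next to its target, in capitals, and it has 1 exact match in the assembly.
Patz1 guide: aaggggcagcgaccatggagCGG
The bin with the guide and the Patz1 start site, 3288001 to 3296000, showed, in WT, 522 contacts up to 200 kb against 362 in PATZ1 KO mESCs, a log2 ratio of -0.42 ± 0.19. Against 10 bins on each side this was -0.49, rank 6 from the lowest of 281083 bins. The neighbouring bins stood at 0.21 and 0.22. In mESCs the lower count was not even over distance. Contacts of the bin at 16 to 200 kb went from 250 to 141, a log2 ratio of -0.72 ± 0.30, while those with the bins next to it went from 114 to 105, or -0.01 ± 0.38. In MNs these log2 ratios were -0.92 ± 0.37 and -0.71 ± 0.49, closer to each other, and the neighbouring bins stood at -0.33 and -0.46. The columns of the file carry no sample name and were read as WT first and PATZ1 KO second, from the order in the name of the comparison, and the second has fewer contacts at the targeted bin.

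Whole chromosomes differed little between the genotypes. The log2 ratio, PATZ1 KO over WT, lay between -0.04 on chromosome 16 and 0.04 on chromosome 5. A higher density of 2 chromosomes was shared by both genotypes. Chromosome 6 had 1.58 times the contacts per Mb of the median autosome in WT and 1.62 times in PATZ1 KO mESCs. Chromosome 8 stood at 1.53 and 1.56 times. The other 17 autosomes ranged from 0.905 to 1.05 times in WT and from 0.924 to 1.05 times in PATZ1 KO. MNs showed the same order, with chromosome 6 at 1.57 times in WT and 1.61 times in PATZ1 KO. HoxA, Nanog and the segment of chromosome 6 described next lie on a chromosome with this higher density in both genotypes.

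By distance, PATZ1 KO mESCs had relatively fewer listed contacts at 16 to 192 kb and more beyond. At 16 to 32 kb the counts were 17004102 in WT and 15110400 in PATZ1 KO, a log2 ratio of -0.07. At 1 to 5 Mb they were 3969892 and 3908246, a log2 ratio of 0.08. Only pairs seen in both libraries are listed. These contacts lay in 3135546 pairs, little more than 1 a pair in each library, so the counts are held near equal. Scaling by the totals, whose log2 ratio was -0.10, then lifts equal counts above 0. The higher values at long range are therefore not read as more contacts in PATZ1 KO. Among contacts of bins at least 16 kb apart, the share under 200 kb was 59.0% in WT (58.99 to 59.01) and 57.6% in PATZ1 KO (57.59 to 57.62). This difference of -1.40 percentage points was -0.763 after thinning, in which contacts were drawn at random to 1 common total and pairs left at 0 in either library then dropped out. How far the listing of shared pairs sets this difference was not tested. Base composition moved with the ratio at short range. For neighbouring bins that both lay in the quintile of bins lowest in GC content, the log2 ratio was -0.21, and in the highest quintile it was 0.14. At 200 to 992 kb these values were -0.04 and 0.02. In MNs the order was opposite, at 0.50 and -0.45 for neighbouring bins. Over 1 Mb windows the log2 ratio had a Pearson r with GC content of 0.09 in mESCs and -0.97 in MNs (2372 windows with a value in MNs, outside 5 segments described next; all windows share these libraries). An MN value is therefore read here against its own flanks.

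The contacts of 5 segments differed as blocks from those of their flanks. They were found after the values had been seen, by comparing windows of 200 kb to 1.6 Mb with their flanks of 200 kb. Of 226630 overlapping windows, 7 were higher than both flanks by more than the lower fold limit in PATZ1 KO mESCs (0.00309%) and 21 were lower (0.00927%). They merged into 2 segments with more and 3 with fewer contacts. The ends were set where the counts of the genotypes separated best, to the nearest bin.

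**Figure D1:**
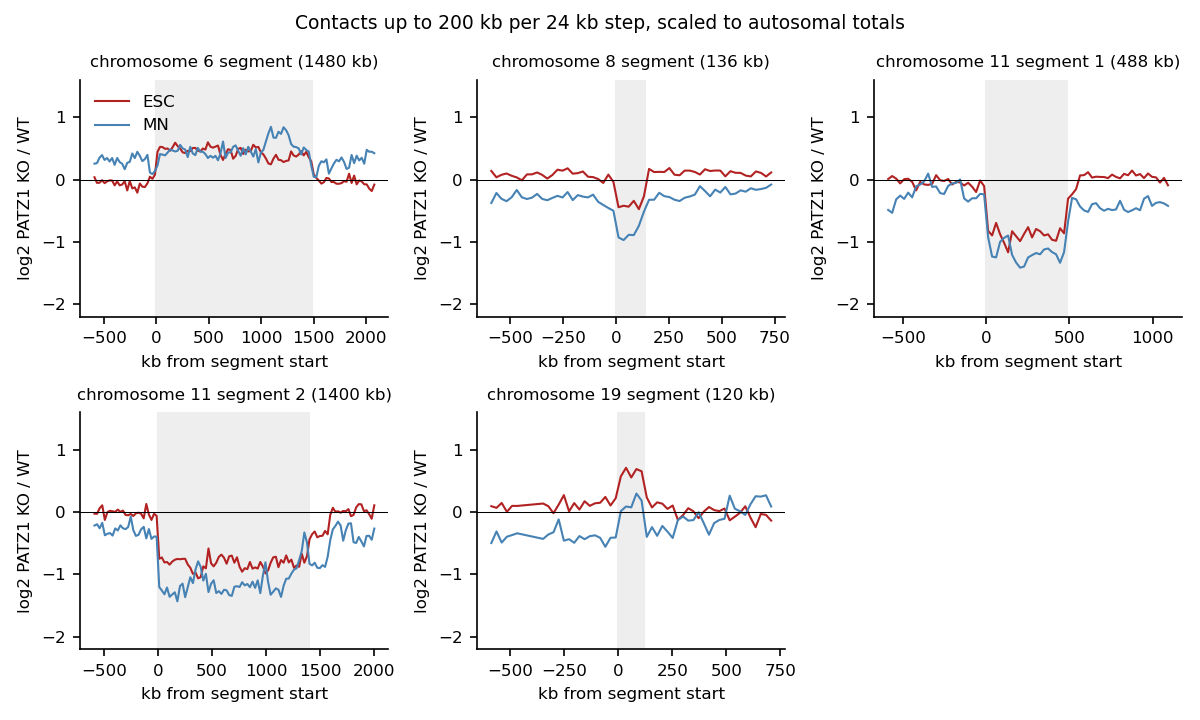
Log2 ratio of PATZ1 KO over WT contacts up to 200 kb, in steps of 24 kb, against the distance in kb from the start of each of 5 segments (shaded), in ESCs (red) and MNs (blue), 1 library per genotype and state. In ESCs the ratio stepped up on chromosomes 6 and 19 and down on chromosomes 8 and 11, and in MNs it stepped in the same direction relative to the flanks.

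The longest gain lay at chr6:17016001-18496000 (GRCm38), 1480 kb with 10 protein-coding genes. Contacts up to 200 kb went from 188973 (WT) to 239123 (PATZ1 KO), a log2 ratio of 0.44 ± 0.01 or 1.36 times. The flanks of 400 kb stood at -0.07 and -0.01. Within the segment lie Cav1 and Cav2, which encode caveolins of membrane pits, Met, the receptor for hepatocyte growth factor, Wnt2, a secreted signalling ligand, and Cftr, the chloride channel altered in cystic fibrosis. Tes, Capza2, St7, Asz1 and Cttnbp2 are the other genes. Contacts within single bins of 8 kb were higher by 0.44 ± 0.02. Contacts between bins inside the segment were higher by 0.50 ± 0.01, but those of the segment with its flanks by only 0.07 ± 0.03. In MNs the segment stood at 0.49, between flanks at 0.29 and 0.21.

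The other gain was shorter and steeper, at chr19:7160001-7280000, 120 kb over Macrod1, Otub1, Cox8a, Naa40, Rcor2 and Mark2. Rcor2 is a subunit of a histone demethylase complex, Otub1 removes ubiquitin from proteins and Cox8a is a subunit of cytochrome c oxidase. Contacts went from 8302 (WT) to 11994 (PATZ1 KO), a log2 ratio of 0.64 ± 0.04, with flanks at 0.13 and 0.04. Contacts of this segment with its flanks stood at 0.08 ± 0.07, while contacts across it, from one flank to the other, went from 775 to 602 (-0.26 ± 0.15). The segment was called with windows from 120 or 200 kb and not when windows started at 400 kb, where the chromosome 8 segment was also lost, while windows from 120 kb missed the chromosome 6 segment and the longer segment of chromosome 11. In MNs it stood at 0.13 against flanks at -0.40 and -0.21.

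The largest losses were 2 segments of chromosome 11. At chr11:96872001-98272000, 1400 kb with 39 protein-coding genes, contacts went from 183630 (WT) to 96478 (PATZ1 KO), 0.565 times. Its genes include Kpnb1, a nuclear import receptor, Pcgf2, a Polycomb repressive complex subunit, Med1, a subunit of Mediator, Cdk12, a kinase of RNA polymerase II, the ribosomal protein genes Rpl19 and Rpl23, and Tbx21, a transcription factor of T cells. At chr11:87536001-88024000, 488 kb with 16 genes such as Rnf43, an inhibitor of Wnt receptors, Mpo, the myeloperoxidase of neutrophils, and Supt4a, a transcription elongation factor, contacts went from 37257 to 18771, or 0.542 times. The log2 ratios were -0.82 ± 0.01 and -0.88 ± 0.03, and the flanks lay between -0.17 and 0.03. The longer segment did not end in 1 step. In the steps of 24 kb at 1404 to 1572 kb from its start, just past its end, the log2 ratio stayed between -0.44 and -0.30 in mESCs and between -0.90 and -0.72 in MNs, and at 1596 kb it was -0.05 in mESCs. In the shorter segment, contacts from one flank to the other went the other way, from 235 to 323 (0.56 ± 0.24). In MNs both segments were also low, at -1.12 and -1.16 against flanks between -0.55 and -0.14.

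The remaining loss lay inside a single gene. At chr8:115176001-115312000, 136 kb within Wwox, an oxidoreductase gene known as a common fragile site, contacts went from 15619 (WT) to 10868 (PATZ1 KO), a log2 ratio of -0.42 ± 0.04. Its flanks stood at 0.08 and 0.13. Contacts from one flank to the other went from 5138 to 6275 (0.39 ± 0.05), higher in PATZ1 KO. In MNs the segment stood at -0.88 against flanks at -0.31 and -0.24, and its flank-to-flank contacts at -0.18 ± 0.06. Chromosome copies were not measured apart from contacts in these libraries, and whether the segments differ in copies between the lines was not tested.

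Outside the segments, megabase windows were alike in the genotypes. Of 2385 windows of 1 Mb, 1 was higher past the lower fold limit (0.0419%) and 3 were lower (0.126%) in PATZ1 KO mESCs, and all 4 overlapped the segments on chromosomes 6 and 11. Of the 2376 windows that overlapped no segment, 0 were past the lower fold limit. The segments were picked from these same libraries at the same limit, so this 0 is not a separate result. The window with Tes, Cav1, Cav2 and Met showed, in WT, 40059 contacts against 53038 in PATZ1 KO. The window with Sp6, Tbx21 and Kpnb1, chr11:97000001-98000000, had 30569 and 14161. The log2 ratio of the median window was -0.05, with an SD of 0.08 over windows.

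**Figure D2:**
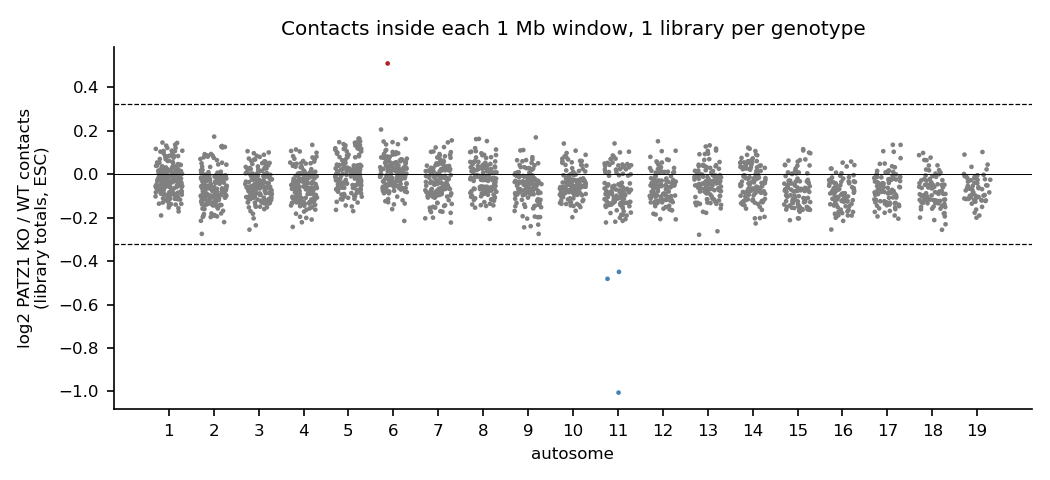
Log2 ratio of PATZ1 KO over WT contacts inside each of 2385 windows of 1 Mb, grouped by autosome, in ESCs. Dashed lines mark the lower fold limit, and the 1 window above (red) and 3 below (blue) lie on chromosomes 6 and 11.

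Domains gave more calls, nearly all of them lower in PATZ1 KO. Of 3181 domains with a median length of 456 kb, 1 was higher past the lower fold limit (0.0314%) and 57 were lower (1.79%) in PATZ1 KO mESCs. Of the 57, 8 overlapped a segment and 49 lay elsewhere. The 49 had a median length of 200 kb and 14.7 start sites of protein-coding genes per Mb, against 460 kb and 8.79 for all 3168 domains outside the segments. They included a domain with Katnal2 and Pias2 (a SUMO ligase) on chromosome 18, where contacts went from 893 to 545 (-0.61 ± 0.15). The domain at chr15:103192001-103344000, in the anterior flank of the HoxC cluster described below, holds Cbx5, which encodes the heterochromatin protein HP1 alpha, Hnrnpa1, an RNA-binding splicing factor, and Nfe2, and its contacts went from 2086 to 1359 (-0.51 ± 0.10). The domain with Atm, the kinase of the DNA damage response, Npat, an activator of histone genes, Acat1 and Cul5 on chromosome 9 went from 3012 to 1975 (-0.50 ± 0.08). A domain within Ubr3 on chromosome 2 went from 1500 to 998 (-0.48 ± 0.12). In MNs the 49 domains had a median log2 ratio of -0.10 with 33 below 0. All domains outside the segments stood at -0.21 in MNs, with 2464 of 3168 below 0. The median GC content was 41.7% in the 49 and 43.5% in all, and MN ratios moved with GC content.

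The ratio, scaled to library totals, varied with the length and gene content of a domain. Over all autosomes it was -0.05 at 40 to 192 kb and 0.02 at 200 to 992 kb, and short domains hold only short contacts. How far this sets the trend with length was not tested, since the medians below were not scaled at each distance. Length and gene content were not separated. In the quintile of domains with the fewest start sites per Mb the median log2 ratio was -0.01 (-0.02 to -0.0011), and in the quintile with the most it was -0.13 (-0.14 to -0.12). In the shortest quintile it was -0.13 (-0.14 to -0.12), with 37 of 633 domains called lower, and in the longest quintile -0.02 (-0.03 to -0.01), with 0 called. In the lowest and highest quintiles of GC content the medians were close, at -0.05 and -0.07, but 18 of 633 and 2 of 634 domains were called lower. The count of lower domains was 24 when each distance was scaled separately and 22 when centred on the median domain, so the scaling sets most of this count.

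Boundaries were described next, since PATZ1 was studied as an insulating protein. The score of a boundary was the log2 of the contacts crossing a bin within 200 kb over those within its flanks. From it was taken the median of all scored bins of the chromosome, on both libraries summed. A positive change in PATZ1 KO means weaker insulation. The change was not centred on that of all bins. Of 3282 boundaries, 4 were weaker by more than the lower fold limit in PATZ1 KO mESCs (0.122%) and 0 were stronger (0%). This was not stable either. After thinning 2 were weaker and 0 stronger, and without pairs of under 4 contacts 5 were weaker and 6 stronger. The median score was -0.84 in WT and -0.83 in PATZ1 KO. The median change was 0.0064 (0.0034 to 0.0094), but it was -0.0164 after thinning and -0.0131 without pairs of under 4 contacts, so its sign was not stable. For 303 of the 3282 boundaries the change exceeded its own counting error, whose median half-width was 0.14.

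**Figure D3:**
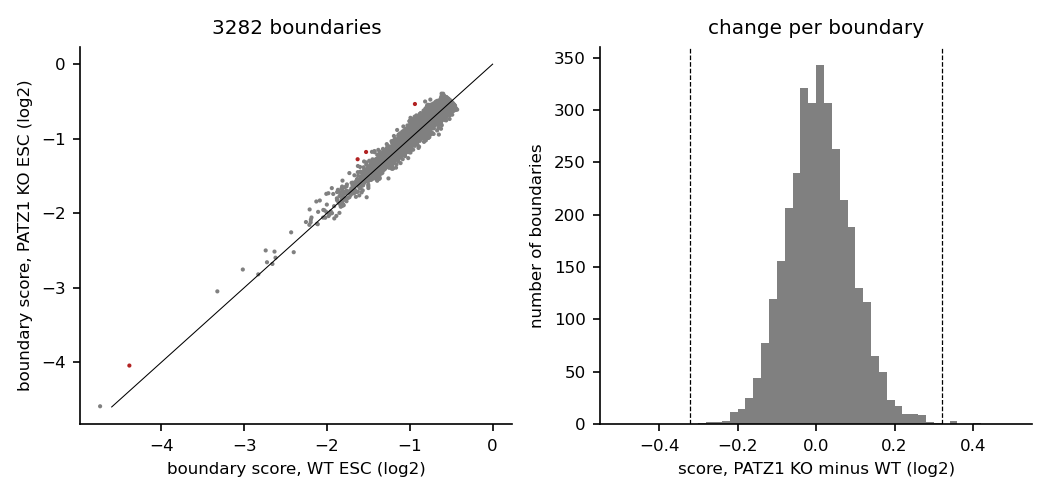
Boundary score of 3282 boundaries in PATZ1 KO against WT ESCs (left, log2, line of equality) and the change per boundary (right, PATZ1 KO minus WT, dashed lines at the lower fold limit), 1 library per genotype. Points follow the line of equality, and the 4 boundaries past the lower fold limit (red) lie above it.

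The boundary with the largest change, at chr11:96864001-96872000 near Copz2, Nfe2l1 and Cdk5rap3, adjoins the longer chromosome 11 segment. Its score went from -0.94 to -0.53. Outside the segments, the boundary at chr7:97328001-97336000, near Usp35 and Gab2, a docking protein of growth factor receptors, went from -1.53 to -1.18 (change 0.35 ± 0.16). A boundary at chr13:74584001-74592000 with no protein-coding gene within 40 kb went from -1.63 to -1.28 (0.35 ± 0.19). The fourth, at chr6:47728001-47736000, rested on 92 and 95 crossing contacts, and its change of 0.34 ± 0.42 was within counting error. Its bin had a GC content of 0%, the value of a bin without called bases in the assembly, so it is not read as insulation. In MNs the changes at these 4 were 0.425, -0.07, -0.06 and 0.11 in the order Copz2, Usp35, chromosome 13 and chromosome 6. The lowest change was -0.30 ± 0.16 near Tmtc3 and Cep290 on chromosome 10.

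Letters known from the motifs of insulating proteins were then counted in the boundary bins on both strands. The CTCF-type letters AGGGGGCG or AGGTGGCA were present in 41.3% of boundary bins (39.7 to 43.1) and in 31.4% of all autosomal bins. The G-rich letters GGGGAGGGG, of the kind bound by PATZ1 and MAZ, were present in 42.4% (40.7 to 44.1) and in 35.5%. Start sites lay in 23.5% of boundary bins (22.0 to 24.9) and in 6.28% of all bins. The medians by letters were alike within their intervals. The median change was 0.0065 (0.0006 to 0.0100) in the 1391 boundaries with the G-rich letters and 0.0060 (0.0029 to 0.0107) in the 1891 without them. With CTCF-type letters it was 0.0037 (-0.0023 to 0.0083) and without them 0.0089 (0.0048 to 0.0138). With a start site it was -0.0063 (-0.0120 to -0.0013) in 770 boundaries and without one 0.0105 (0.0072 to 0.0143) in 2512. The median of all boundaries moved to -0.0164 after thinning, so the side of 0 on which a group lies is not read. By GC content it went from 0.0206 (0.0105 to 0.0291) in the lowest quintile of boundaries to -0.0050 (-0.0122 to 0.0034) in the highest. The strongest quintile of boundaries had a median change of 0.0074 (-0.0018 to 0.0156).

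Promoters were examined through the contacts of each start-site bin with bins 16 to 200 kb away. The median of 19917 promoters was -0.12 on the log2 scale, and changes of gene lists are given relative to it. Of these promoters, 5 were higher past the upper fold limit (0.0251%) and 122 were lower (0.613%) in PATZ1 KO mESCs. Of the 122, 54 lay in the segments, with Kpnb1 the lowest at 508 contacts in WT and 169 in PATZ1 KO (-1.48 ± 0.25). Centred on the median promoter, 14 were higher and 59 lower.

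Of the 68 lower promoters outside the segments, the 5 lowest were those of Xpnpep3, Birc6, Gpr1, Cbx5 and Patz1. Xpnpep3, an aminopeptidase, went from 239 to 129 contacts (-0.785 ± 0.31), and Birc6, an inhibitor of apoptosis, from 345 to 187 (-0.78 ± 0.26). Gpr1, a receptor coupled to G proteins, went from 367 to 202 (-0.76 ± 0.25). Cbx5 went from 360 to 200 (-0.74 ± 0.25), and Patz1 had the values given above. Of the 5 higher promoters, Rcor2 in the chromosome 19 segment had 371 contacts in PATZ1 KO (0.64 ± 0.23). The others are Klk1b8, a kallikrein, Bsph1, a sperm protein, and the vomeronasal receptor genes V1rd19 and Vmn1r181, all in gene families on chromosome 7 whose copies can share reads.

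**Figure D4:**
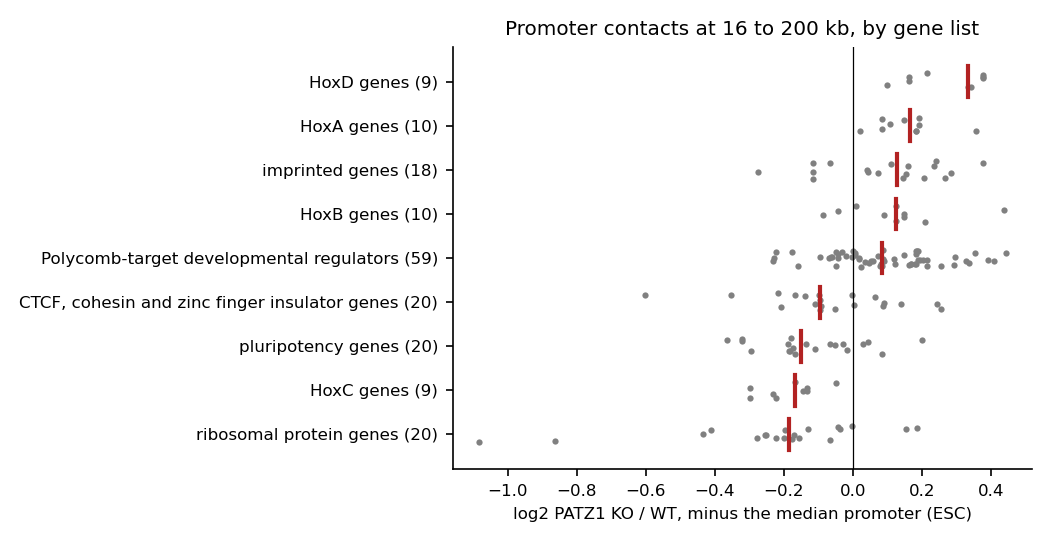
Log2 ratio of PATZ1 KO over WT promoter contacts at 16 to 200 kb in ESCs, minus the median promoter, for each gene (grey points) of 9 lists with the number of genes measured, and the median of each list (red bar). The lists of ribosomal protein, HoxC and pluripotency genes lie mostly below the median promoter and those of HoxA and HoxD genes above it.

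Gene lists differed in where they lay around the median promoter. Log2 values of lists and of their members in this paragraph and the next are relative to it. Of 20 ribosomal protein genes, 18 lay below it, with a list median of -0.19, and 2 were called lower. These were Rpl23 (490 to 198) and Rpl19 (493 to 232), both in the chromosome 11 segment. Of 20 pluripotency genes, 16 lay below it, with a median of -0.15 and 0 called. The members with most contacts were Nanog, a core factor of the stem cell state, with 694 and 529 (-0.17 ± 0.16), and Dppa3, a maternal factor of the early embryo, with 538 and 404 (-0.19 ± 0.19). Sox2, which acts with Nanog and was named after its value was seen as the lowest of the list, stood at 402 and 267 (-0.37 ± 0.22). Of 20 genes of CTCF, cohesin and zinc finger insulators, 13 lay below the median promoter and 1, Patz1, was called. Ctcf had 445 and 382 contacts (0.004 ± 0.20), Mau2, a cohesin loader, 425 and 387 (0.09 ± 0.20), and Rad21, a cohesin subunit, 451 and 334 (-0.21 ± 0.20).

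Lists of developmental and imprinted genes had medians above that of all promoters, except HoxC. Of 59 Polycomb-target developmental regulators, 16 lay below the median promoter, the list median was 0.08 and 0 were called. The members with most contacts were Hoxa9 with 456 and 443 (0.18 ± 0.19), Hoxc9 with 502 and 368 (-0.22 ± 0.19), and Hand2, a factor of heart and limb, with 443 and 424 (0.16 ± 0.19). Of 18 imprinted genes measured, 5 lay below it, with a list median of 0.13 and 0 called. Peg10 and Sgce, which share a start-site bin, stood at 539 and 426 (-0.115 ± 0.18), and Rasgrf1, a Ras activator, at 390 and 433 (0.375 ± 0.20). All 10 HoxA genes listed and 9 HoxD genes lay above the median promoter, with list medians of 0.17 and 0.33, and all 9 HoxC genes below it, at -0.17. Of 10 HoxB genes 2 lay below it (0.12). Genes whose start sites share a bin have one measurement between them, as do Hoxa3 and Hoxa6, Hoxa10 and Hoxa11, Hoxb7 and Hoxb8, Hoxc5 and Hoxc10, Hoxd11 and Hoxd12, and Hoxd3, Hoxd4 and Hoxd8, so these counts hold fewer bins than genes. Hoxa5, the HoxA member with most contacts, stood at 591 and 513 (0.02 ± 0.17), and Hoxc8, that of HoxC, at 545 and 397 (-0.23 ± 0.19). Promoters grouped by GC content had medians between -0.13 and -0.11 in all quintiles, before the median promoter was subtracted. Families were also grouped by symbol, after the values were seen, and their calls are to be read beside the 0.613% of all promoters called lower. Of 61 histone genes, 51 lay below the median promoter (list median -0.17) and 5 were called lower, of which Hist1h2ac and Hist1h2bc share a bin and Hist1h2ab, Hist1h2bb and Hist1h3c share another. Of 72 cytosolic ribosomal protein genes by symbol, which include the 20 above, 54 lay below it (-0.13) and 3 were called lower, Rps27l beside the pair in the segment. Of 39 proteasome subunit genes 28 did (-0.09, with Psma3 and, in the longer chromosome 11 segment, Psmb3 called lower), of 78 mitochondrial ribosomal protein genes 46 (-0.03, with Mrpl10 and Mrpl45 of that segment called lower), and of 354 zinc finger protein genes 223 (-0.05, with 0). Of 1119 olfactory receptor genes, 581 did (-0.0080), and 7 were called lower, a share near that of all promoters. Olfr462, Olfr463 and Olfr464 among them lie in the shorter chromosome 11 segment. Fewer lay below it among 234 vomeronasal receptor genes, at 97 (0.03, with 1 called higher), and among 113 keratin genes, at 26 (0.10, with 0 called).

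Hox clusters were split into anterior and posterior genes, since insulation between them is what the study followed. Hox genes encode the transcription factors that set position along the body axis. In HoxD, contacts between the anterior genes (Hoxd1 to Hoxd8) and the posterior genes (Hoxd9 to Hoxd13) went from 366 (WT) to 436 (PATZ1 KO), a log2 ratio of 0.36 (0.16 to 0.56), and those among the posterior genes from 107 to 143 (0.52, 0.16 to 0.88). HoxB, split before Hoxb13, showed 408 and 377 anterior to posterior contacts (-0.01, -0.21 to 0.19). Its posterior genes with their own flank stood at -0.21 (-0.34 to -0.08). Among the HoxB ratios only that within the anterior genes, 0.01 (-0.10 to 0.12), was above 0. Scaled at each distance, that between the anterior and posterior genes of HoxB was also above 0, at 0.05. All 8 HoxC log2 ratios were below 0, with 728 and 531 contacts between anterior genes (Hoxc4 to Hoxc8) and posterior genes (Hoxc9 to Hoxc13) (-0.35, -0.51 to -0.19) and 1516 and 981 from its posterior genes to the anterior flank of 400 kb (-0.52, -0.64 to -0.41). In MNs the anterior to posterior contacts of HoxD numbered 123 and 112, a log2 ratio of -0.21 (-0.575 to 0.16). Contacts of the anterior genes with their flank stood at -0.165 in MNs. Those from one flank to the other numbered 379 and 382 (-0.06). Only pairs seen in both libraries are listed, which holds sparse counts near equal, so this last value is not read as a background. Of 40 named loci and cluster blocks, 2 were higher past the lower fold limit (both in HoxD) and 3 lower (all in HoxC) in PATZ1 KO mESCs. Scaled at each distance, 1 was lower.

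**Figure D5:**
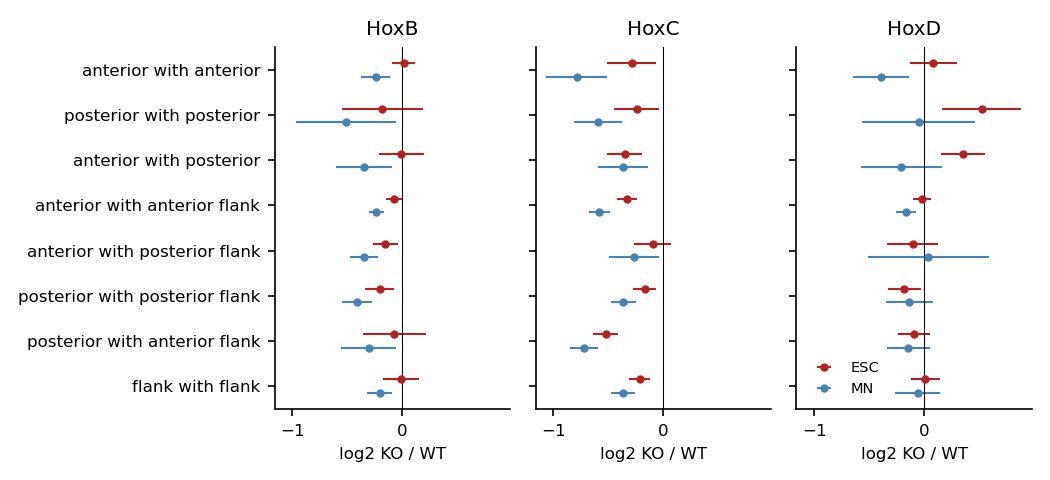
Log2 ratio of PATZ1 KO over WT contacts between the anterior genes, the posterior genes and the 400 kb flanks of the HoxB, HoxC and HoxD clusters, in ESCs (red) and MNs (blue), with 95% counting intervals and 1 library per genotype and state. In ESCs the anterior to posterior contacts of HoxD lie above 0 and those of HoxC below.

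Boundary scores were read at the anterior to posterior border of each cluster. At the HoxA border between Hoxa7 and Hoxa9, chr6:52224001-52232000, the score was -1.27 in WT against -0.94 in PATZ1 KO mESCs, a change of 0.33 ± 0.11. At HoxD, chr2:74704001-74712000, it went from -1.16 to -0.93 (0.23 ± 0.14). At HoxB the change was -0.01 ± 0.12, and at HoxC, chr15:102984001-102992000, it was -0.195 ± 0.098. The border bins are not themselves called boundaries, and the nearest boundary lay 24 kb away in HoxA and HoxD and 32 kb away in HoxB and HoxC. None of these nearest boundaries was past the lower fold limit. Each score sums contacts within 200 kb of the bin, which reach beyond the cluster. Border scores were read at the main setting only, so their stability was not tested. To show what lies at these borders, the sites of 30 bases around the CTCF-type letters (capitals) that lie in introns, in the border bin or a bin next to it, are given (GRCm38, in the strand of the letters).
HoxA, intron of Hoxa7, chr6:52217734-52217763, minus strand: gttgtcgggggAGGGGGCGagatccctgcc
HoxA, intron of Hoxa9, chr6:52225279-52225308, minus strand: ctgctgcagtgAGGGGGCGgggcgggcggg
HoxA, intron of Hoxa10, chr6:52236978-52237007, minus strand: aggacatttccAGGTGGCActgttgaacac
HoxC, intron within Hoxc5 and Hoxc9, chr15:102980339-102980368, minus strand: aagaattcagaAGGTGGCAgtgtgattgaa
HoxD, intron within Hoxd3 and Hoxd4, chr2:74716186-74716215, plus strand: cggcgacccagAGGGGGCGttatttcctca
In all, these letters had 3 matches at the HoxA border, 0 at HoxB, 2 at HoxC and 5 at HoxD. Of the 5 not printed, 1 lies in an untranslated part of HoxC genes, and 4 lie in the HoxD border bin itself, in untranslated or coding sequence where Hoxd8 and Hoxd3os1 overlap. A match is a description of the letters, and binding was not read in these libraries.

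At the pluripotency genes, contacts within the 200 kb around the start site were lower at Nanog, 5335 and 4376 (-0.18, -0.24 to -0.12), and at Sox2, 2510 and 2111 (-0.145, -0.23 to -0.06). They were alike at Esrrb, 2543 and 2416 (0.03, -0.05 to 0.11). The Sox2 start site and the region 100 to 120 kb downstream, where its stem cell enhancer lies, showed, in WT, 230 contacts against 175 in PATZ1 KO mESCs (-0.29, -0.573 to -0.006). The Klf4 start site with the region 50 to 60 kb downstream had 60 and 48 (-0.22, -0.765 to 0.33), and the Nanog start site with the region 40 to 50 kb upstream 206 and 163 (-0.23, -0.53 to 0.06), both within counting error. At Dsp, which encodes the desmosome protein desmoplakin, contacts went from 2927 to 2402 (-0.18, -0.26 to -0.10). The imprinted gene Grb10, which encodes an adaptor of the insulin receptor, had 2507 and 2182 contacts (-0.10, -0.18 to -0.01). Each of these was within the lower fold limit. Scaled at each distance, the log2 ratio was -0.03 at Grb10, -0.085 at Sox2, -0.12 at Nanog and -0.125 at Dsp, and the value at Grb10 was then within its counting error. So was that of the Sox2 start site with its downstream region, at -0.245.

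Loop-like pairs, bins at most 1056 kb and in the median 168 kb apart that stood out from the ring of pairs around them, numbered 811. Their summed centre over the corner nearest the diagonal was 1.48 in WT and 1.49 in PATZ1 KO mESCs, a log2 ratio of 0.0083 (-0.0108 to 0.0274). It stayed within counting error at pairs with CTCF-type letters at both ends (0.0110, -0.0134 to 0.0354) and with the G-rich letters at both ends (0.0044, -0.0193 to 0.0281). Of the 811, 5 were higher past the upper fold limit (0.617%) and 4 were lower (0.493%). A pair within Meis1, which encodes a cofactor of Hox proteins, went from 105 to 160 (0.71 ± 0.36). A pair near the chemokine genes Ppbp, Pf4 and Cxcl3 went from 107 to 159 (0.68 ± 0.35). A pair from Riok2 and Lix1 to Lnpep went from 191 to 109 (-0.70 ± 0.34). Of the 5 higher pairs, those on chromosome 6 (99 to 142 and 59 to 96) lay in the segment described above.

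Compartments are the division of chromosomes into gene-rich active and gene-poor inactive parts that prefer their own kind. Their strength, contact within kinds over contact between them at 2.05 Mb or more, differed between PATZ1 KO and WT by a median log2 ratio of -0.0083 over the 19 autosomes. Values ranged from -0.06 on chromosome 18 to 0.04 on chromosome 7, with 11 of 19 below 0. Only pairs seen in both libraries are listed, and over 5 Mb 968926 pairs held 999974 (WT) and 995366 (PATZ1 KO) contacts. This holds the libraries near equal at such distances, so the ratio cannot show whether compartments differ. Contacts between Polycomb-target genes over 2 Mb apart were too few to compare. Over 112 gene pairs there were 4 contacts in each genotype, in 3 of the pairs. Single bins were set against the bins around them, and 11 were higher (0.00391%) and 1 lower (0.000356%) of 281083 past the upper fold limit. The lower one, at chr17:39840001-39848000 with no protein-coding gene, went from 12934 to 4590 contacts. The bin before it had only 558 and 436. Whether the high count sums copies of a repeated sequence was not tested. The 8 highest bins are its neighbours, whose comparison includes it, and no rise is read from them. In unscaled counts the highest of them had 387 (WT) and 349 (PATZ1 KO), and the next 403 and 396.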

How the data were processed

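Contacts were measured by Micro-C in 4 libraries, 1 per genotype and cell state. The authors deposited, for each cell state, a table of HiCcompare made for them, with whole-number contact counts of WT and PATZ1 KO for pairs of 8 kb bins. The submitters' processing notes name mm10, and the aligner is not given in the sources used here. Adjusted counts, differences and p-values in the same tables are the authors' comparison and were not used. Only pairs with a contact in both libraries are listed. This leaves out pairs lost in either library. The median pair had 4 contacts in both ESC libraries together, and 40.28% of pairs had under 4, so contacts were summed over regions. Contacts between blocks of the HoxA cluster and the promoter of 1 of its genes are not reported here.

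Sums used bins at least 16 kb apart unless stated, with genes from GENCODE M21 on GRCm38. Windows needed 2000 contacts, domains 500 and promoters 100. Boundaries were minima of the crossing score below -0.5 on both libraries summed, and domains lay between them. Fold limits were 1.25, and 1.5 for promoters, loop-like pairs and single bins. Named were the largest called changes in each direction (at most 5, neighbours counted once), for domains and promoters also outside the segments, and in gene lists the called members, otherwise those with most contacts. Members and lists were chosen with earlier results of these data known. Intervals of ratios assume Poisson counts, those of shares are exact (Clopper-Pearson), and those of medians use order statistics. Python 3.11.15, NumPy 2.4.6, pandas 2.3.3 and SciPy 1.17.1 were used. The calls of segments, boundaries and promoters were tested on simulated data, and the other measures were not.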

Additional observations from a re-analysis of the deposited data

Results flagged for a closer look

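Chromosome X, which was left out of the comparison, had a log2 ratio of PATZ1 KO over WT contacts of 0.416 ± 0.0017 in mESCs, outside the range of the 19 autosomes. Its contact density was 0.498 times that of the median autosome in WT and 0.667 times in PATZ1 KO mESCs, and in MNs the log2 ratio was 0.585. The number of X chromosomes in the lines was not measured.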

How the results depend on the processing

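Each alternative changed one choice. Windows: with a limit of 1.5-fold, 0 were higher and 1 lower, and with windows of 500 kb 2 and 10. Domains: scaled at each distance, 2 were higher and 24 lower, centred on the median 2 and 22, and at 1.5-fold 0 and 8. Promoters: scaled at each distance, 8 were higher and 77 lower, centred on the median 14 and 59, at the lower fold limit 69 and 2198, and with contacts of 16 to 500 kb 1 and 68. Boundaries: weaker ones numbered 2 after thinning, 2 with a square of 400 kb and 0 at 1.5-fold, and stronger ones 6 (against 5 weaker) without pairs of under 4 contacts. The median boundary change was -0.0164 after thinning, -0.0131 without such pairs and 0.0298 with the 400 kb square. Thinning left totals of 137630482 (WT) and 136832860 (PATZ1 KO), and it shortens the list of pairs. The difference in the share of short contacts was -0.763 percentage points after thinning, -0.899 without low pairs and -0.4732 for a limit of 1 Mb. Loop-like pairs at the stricter ring limit, 148 of 811, gave a log2 ratio of 0.0479. Named loci called lower numbered 1 when scaled at each distance.

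Alternatives chosen after seeing the data left out the segments, which gave 0 higher and 0 lower windows, 0 higher domains and 68 lower promoters, removed a fit on GC content, or changed the segment windows. After the GC fit, 1 window was higher and 3 lower, 1 domain and 53, and 7 promoters and 116. Of 5 segments, 3 were found again with windows from 400 kb (not those of chromosomes 8 and 19, and with 1 more on chromosome 17) and 3 with windows from 120 kb (not those of chromosome 6 and the longer one of chromosome 11), so that higher segments numbered 1 and 1. After thinning and without low pairs, 5 of 5 were found. Of the main values under all alternatives, 36 moved past the limit for a change and 49 did not. No paired analysis was possible because each group holds a single library. The cause of these changes was not tested. Pairs of under 4 contacts carry little precision, and contacts between Polycomb-target genes could not be compared at this depth, with 0 contacts in single bin pairs.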
